A study of Mus musculus with 2 samples.

Results

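The barcodes described here carried RNA markers of both luminal lineages of the mouse mammary gland at once. A barcode was included if it had at least 1000 UMIs (unique molecular identifiers, each counting 1 captured RNA molecule), at least 500 genes and at most 10% mitochondrial UMIs, at least 3 UMIs of Krt8 and Krt18 together, at least 3 of 5 progenitor genes (Aldh1a3, Elf5, Kit, Fcgbp, Lurap1l) and at least 3 of 4 hormone-sensing genes (Prlr, Esr1, Pgr, Cited1). It also had to hold under 10 UMIs of Krt5 and Krt14 and under 20 UMIs of Col1a1 and Col3a1 per 10000 UMIs, which kept out basal cells and fibroblasts. In all 652 of 21891 barcodes past the quality filters met this rule, 391 of 10907 in the KO library and 261 of 10984 in the WT library. They are called dual-marker barcodes below.

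The KO library came from C57BL/6 mice with a deletion of Gpm6a, a neuronal membrane glycoprotein gene, and the WT library from wild-type C57BL/6 mice; which part of the gene is missing is not given. All were virgin females 6 to 8 weeks old. Living cells of the 4th mammary gland, dissociated with collagenase and trypsin, were sorted from littermates of each genotype as DAPI-negative cells and sequenced with the 10x Genomics 3′ kit, 1 library per genotype. Whether animals were pooled is not given, and 1 library per genotype allows no test, so each difference is given without a p-value. Intervals are 95% intervals, exact Poisson for levels and exact Clopper-Pearson for shares, and cover counting error only.

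The luminal layer of mammary ducts holds at least a pair of lineages. Luminal progenitors, the source of milk-secreting alveolar cells, depend on the transcription factor Elf5 and carry the receptor tyrosine kinase Kit and the retinal dehydrogenase Aldh1a3. Hormone-sensing cells carry the receptors for oestrogen (Esr1), progesterone (Pgr) and prolactin (Prlr), and pass hormone signals to their neighbours through secreted ligands such as amphiregulin and Wnt4. Mature cells are usually assigned to one lineage or the other, and a droplet that captures more than 1 cell gives a barcode with the RNA of each.

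There were 11442 barcodes and 139757797 UMIs in the KO library, against 12291 barcodes and 160026788 UMIs in the WT library. Gpm6a, the deleted gene, had 31 UMIs over all KO barcodes against 289 UMIs over all WT barcodes. In dual-marker barcodes it had 0 UMIs in the KO library, which allows a level of up to 0.249 CPM (counts per 1000000 UMIs of a group), and 5 UMIs in the WT library, so luminal barcodes are no strong check of the deletion. The libraries shared 33 barcode sequences, which belonged to 3 dual-marker barcodes in KO and 2 in WT.

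Of luminal barcodes, meaning those that met the rule's limits on quality, Krt8 and Krt18, basal keratins and collagens, dual-marker barcodes made up 16.0% (14.6 to 17.5%) of 2445 in the KO library and 13.1% (11.6 to 14.6%) of 1998 in the WT library. The order of the libraries did not hold at every depth: among barcodes no deeper than the 75th percentile of hormone-sensing-only barcodes, the KO share was 0.830 times the WT share. Between the single-programme and the dual-marker corners, counts by detected rule genes dipped, though only slightly on the hormone-sensing side of WT. Among barcodes with all 4 hormone-sensing genes, 65 in KO had 2 progenitor genes, against 204 with 1 and 110 with 3. In WT it was 77 against 208 and 93, and fewer, 35, had all 5. Among barcodes with 3 progenitor genes, 14 in KO had 2 hormone-sensing genes, against 37 with 1 and 33 with 3. In WT it was 11 against 26 and 30. In KO, 76 barcodes had all 9 rule genes, while 6 had exactly 2 of each set. In WT, 35 had all 9 and 10 had exactly 2 of each set. Of barcodes just inside the rule, with exactly 3 genes of each set, there were 33 in KO and 30 in WT. Just outside it, 84 KO and 93 WT barcodes had 2 progenitor genes with 3 or 4 hormone-sensing genes, and 44 KO and 32 WT barcodes had 3 or more progenitor genes with 2 hormone-sensing genes.

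**Figure D1:**
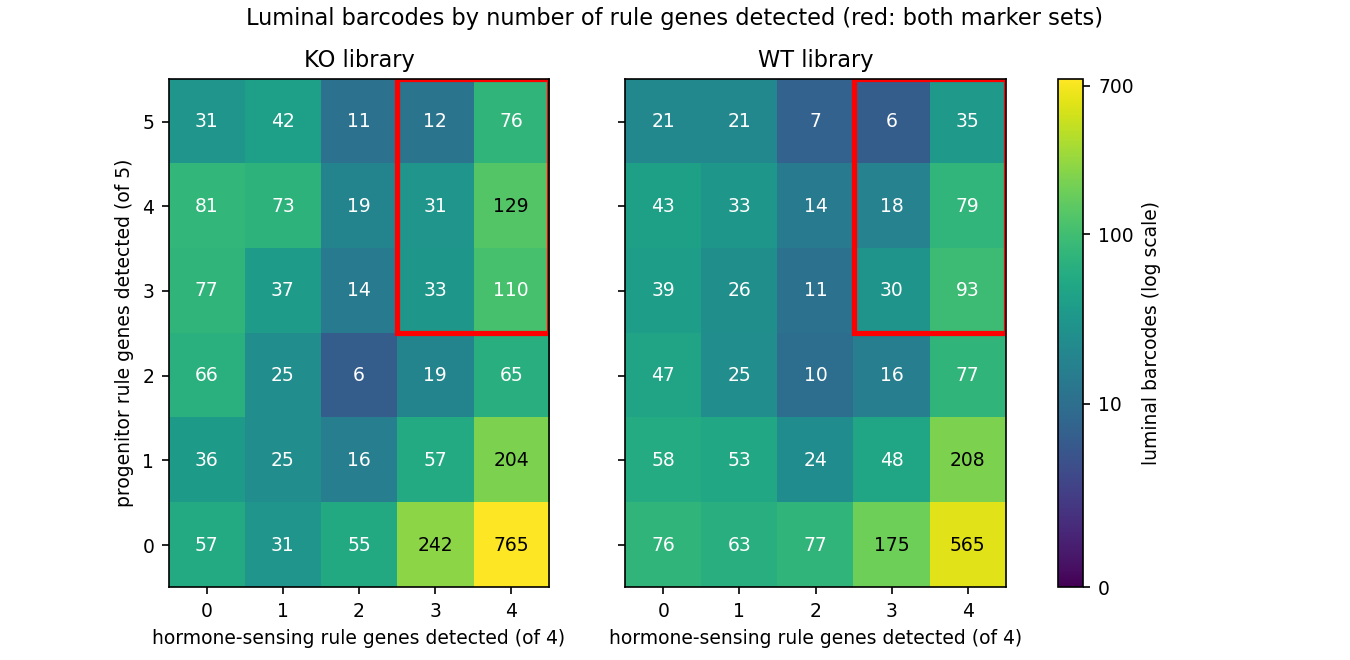
Number of luminal barcodes by how many of the 4 hormone-sensing rule genes (x axis) and 5 progenitor rule genes (y axis) had a UMI, in the KO and WT libraries, with colour on a log scale and the count in each cell. The red frame holds the 391 KO and 261 WT dual-marker barcodes, and the cell with 2 genes of each set holds 6 KO and 10 WT barcodes.

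A pair of groups from the same luminal barcodes served for comparison. Progenitor-only barcodes (341 in KO, 183 in WT) had at least 3 progenitor rule genes and at most 1 hormone-sensing rule gene. Hormone-sensing-only barcodes (1268 in KO, 996 in WT) had at least 3 hormone-sensing rule genes and at most 1 progenitor rule gene. All 3 groups were chosen by their counts, so the levels below describe them and test nothing.

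Dual-marker barcodes were deeper than either single-programme group. Their median was 32907 UMIs in KO and 38557 UMIs in WT. Progenitor-only barcodes had a median of 12217 UMIs in KO and 13930 UMIs in WT, and hormone-sensing-only barcodes 17415 UMIs in KO and 21288 UMIs in WT. The dual-marker median was thus 2.69 times the progenitor-only one in KO and 2.77 times in WT, and 1.11 times the sum of both single-programme medians in KO and 1.09 times in WT. Of dual-marker barcodes, 98.2% in KO and 96.2% in WT lay above the hormone-sensing-only median. They held a median of 5733 genes in KO and 6103 in WT, against 3271 and 3576 genes in progenitor-only and 3933 and 4442.5 genes in hormone-sensing-only barcodes of KO and WT. Detection of a rule gene itself depends on depth. For a further count, barcodes under 5000 UMIs were left out and the others thinned to 5000 UMIs before the rule was applied. Then 49 KO and 24 WT barcodes met it, and their full depth was 2.45 times that of progenitor-only barcodes in KO.

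**Figure D2:**
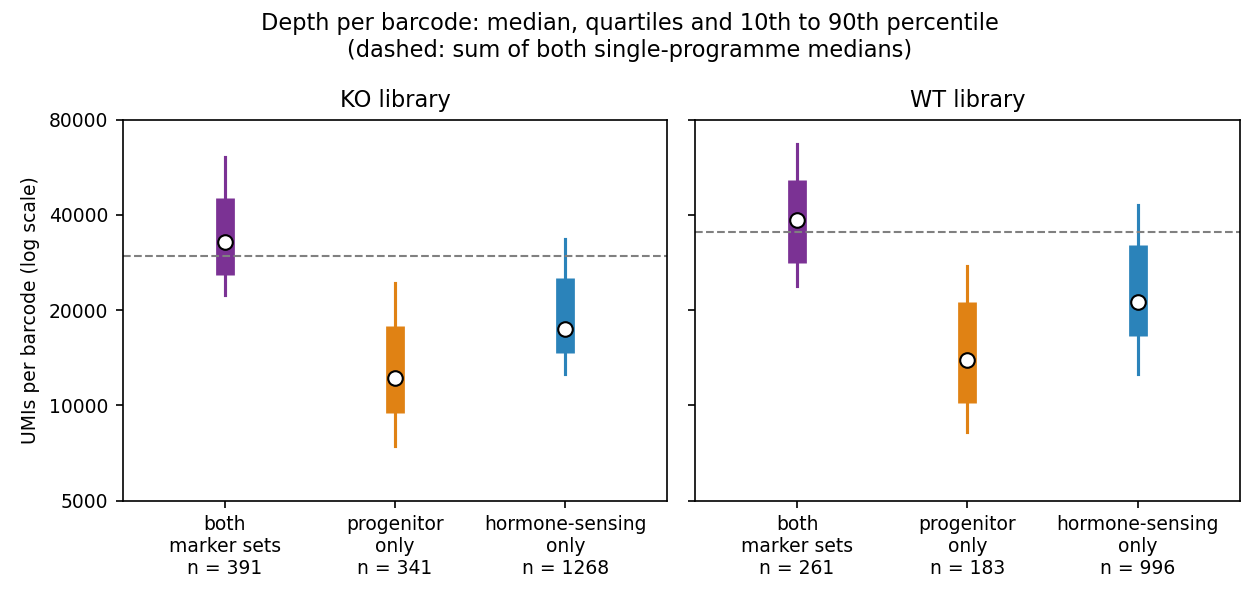
UMIs per barcode on a log axis for dual-marker, progenitor-only and hormone-sensing-only barcodes of each library: points are medians, thick bars the quartiles and thin lines the 10th to 90th percentile. The dual-marker medians, 32907 in KO and 38557 in WT, lie just above the dashed line, the sum of both single-programme medians (29632 in KO, 35218 in WT).

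The rule genes themselves stood between the single-programme groups in both libraries. Aldh1a3, which makes retinoic acid (GRCm38 chromosome 7, 66390890 to 66427517, minus strand), had 824 CPM (809 to 839) in dual-marker barcodes of KO, against 2025 CPM in progenitor-only and 10.8 CPM in hormone-sensing-only barcodes. In WT it had 967 CPM (948 to 985) in dual-marker, 2698 CPM in progenitor-only and 15.7 CPM in hormone-sensing-only barcodes. Elf5, the alveolar fate factor (chromosome 2, 103411688 to 103450989, plus strand), had 65.4 CPM in dual-marker barcodes against 183 and 5.00 CPM in progenitor-only and hormone-sensing-only barcodes of KO. Its dual-marker level in WT was 44.2 CPM, against 115 and 4.86 CPM in those groups. All 9 rule genes were lower in dual-marker barcodes than in the single-programme group they mark. Prlr (chromosome 15, 10177238 to 10349180, plus strand) had 1287 CPM (1269 to 1305) in dual-marker barcodes of KO, against 40.2 CPM in progenitor-only and 1496 CPM in hormone-sensing-only barcodes. In WT the Prlr levels were 1121 CPM (1101 to 1141), 31.5 CPM and 1454 CPM in the same 3 groups. Esr1 (chromosome 10, 4611593 to 5005614, plus strand) had 81.3 CPM in dual-marker barcodes against 2.22 and 108 CPM in progenitor-only and hormone-sensing-only barcodes of KO, and 70.5 CPM against 4.26 and 101 CPM in WT. Cited1, a transcriptional coactivator that binds the oestrogen receptor (chromosome X, 102247381 to 102252181, minus strand), reached 849 CPM in dual-marker barcodes of KO, against 5.06 and 1512 CPM. Its WT levels were 705 CPM in dual-marker barcodes against 2.62 and 1252 CPM in progenitor-only and hormone-sensing-only barcodes.

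Progenitor genes outside the rule showed the same pattern. Of 10 further progenitor genes, 9 of 10 measured were at least 2-fold higher in dual-marker than in hormone-sensing-only barcodes of KO, where 5.64% of all genes were; in WT it was 8 of 9 measured, where 4.03% of all genes were. The median log2 ratio of the list was 4.36 in KO and 4.16 in WT, against 0.04 and -0.003 for all genes tested. Against progenitor-only barcodes all were lower, 7 of 10 by at least 2-fold in KO and 8 of 9 in WT, where 4.5% and 5.56% of all genes were. Wfdc18, a secreted whey acidic protein family member, had 2748 CPM in dual-marker barcodes of KO, against 7548 CPM in progenitor-only and 25.7 CPM in hormone-sensing-only barcodes. In WT it had 2528 CPM in dual-marker, 7113 CPM in progenitor-only and 29.4 CPM in hormone-sensing-only barcodes. Itga2, the integrin alpha 2 chain, differed least, with 29.9 CPM in dual-marker barcodes against 54.8 and 17.4 CPM in progenitor-only and hormone-sensing-only barcodes of KO. Per barcode, the summed level of the list had a median of 69.3 UMIs per 10000 in dual-marker barcodes, 192 in progenitor-only and 1.87 in hormone-sensing-only barcodes of KO, and 67.1, 209 and 2.68 in these groups of WT. In raw UMIs the dual-marker median, 231 in KO and 248 in WT, was close to the progenitor-only median of 239 in KO and 288 in WT.

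Of 10 further hormone-sensing genes, 8 were measured against progenitor-only barcodes in each library, and all 8 were at least 2-fold higher in dual-marker barcodes, where 8.14% of all genes were in KO and 10.2% in WT. Their median log2 ratio was 3.60 in KO and 3.19 in WT. None of the list was 2-fold lower than in hormone-sensing-only barcodes, where 0.86% of all genes were in KO and 0.879% in WT. Areg, which encodes amphiregulin, the oestrogen-induced ligand of the EGF receptor, had 1889 CPM in dual-marker barcodes of KO, against 111 CPM in progenitor-only and 2879 CPM in hormone-sensing-only barcodes. In WT it had 1983 CPM in dual-marker, 95.4 CPM in progenitor-only and 2744 CPM in hormone-sensing-only barcodes. Foxa1, the factor that opens chromatin for the oestrogen receptor, had 59.5 CPM in dual-marker barcodes against 9.51 and 79.0 CPM in KO, and 57.4 CPM against 10.5 and 79.7 CPM in WT, in progenitor-only and hormone-sensing-only barcodes. Greb1, an oestrogen receptor target, was the only listed gene above its hormone-sensing-only level, by a log2 ratio of 0.10 in KO and 0.08 in WT, at 3.85 and 4.55 CPM in dual-marker barcodes. In raw UMIs per barcode, the list had a median of 73 in dual-marker barcodes against 67 in hormone-sensing-only barcodes of KO, and 85 against 75 in WT.

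**Figure D3:**
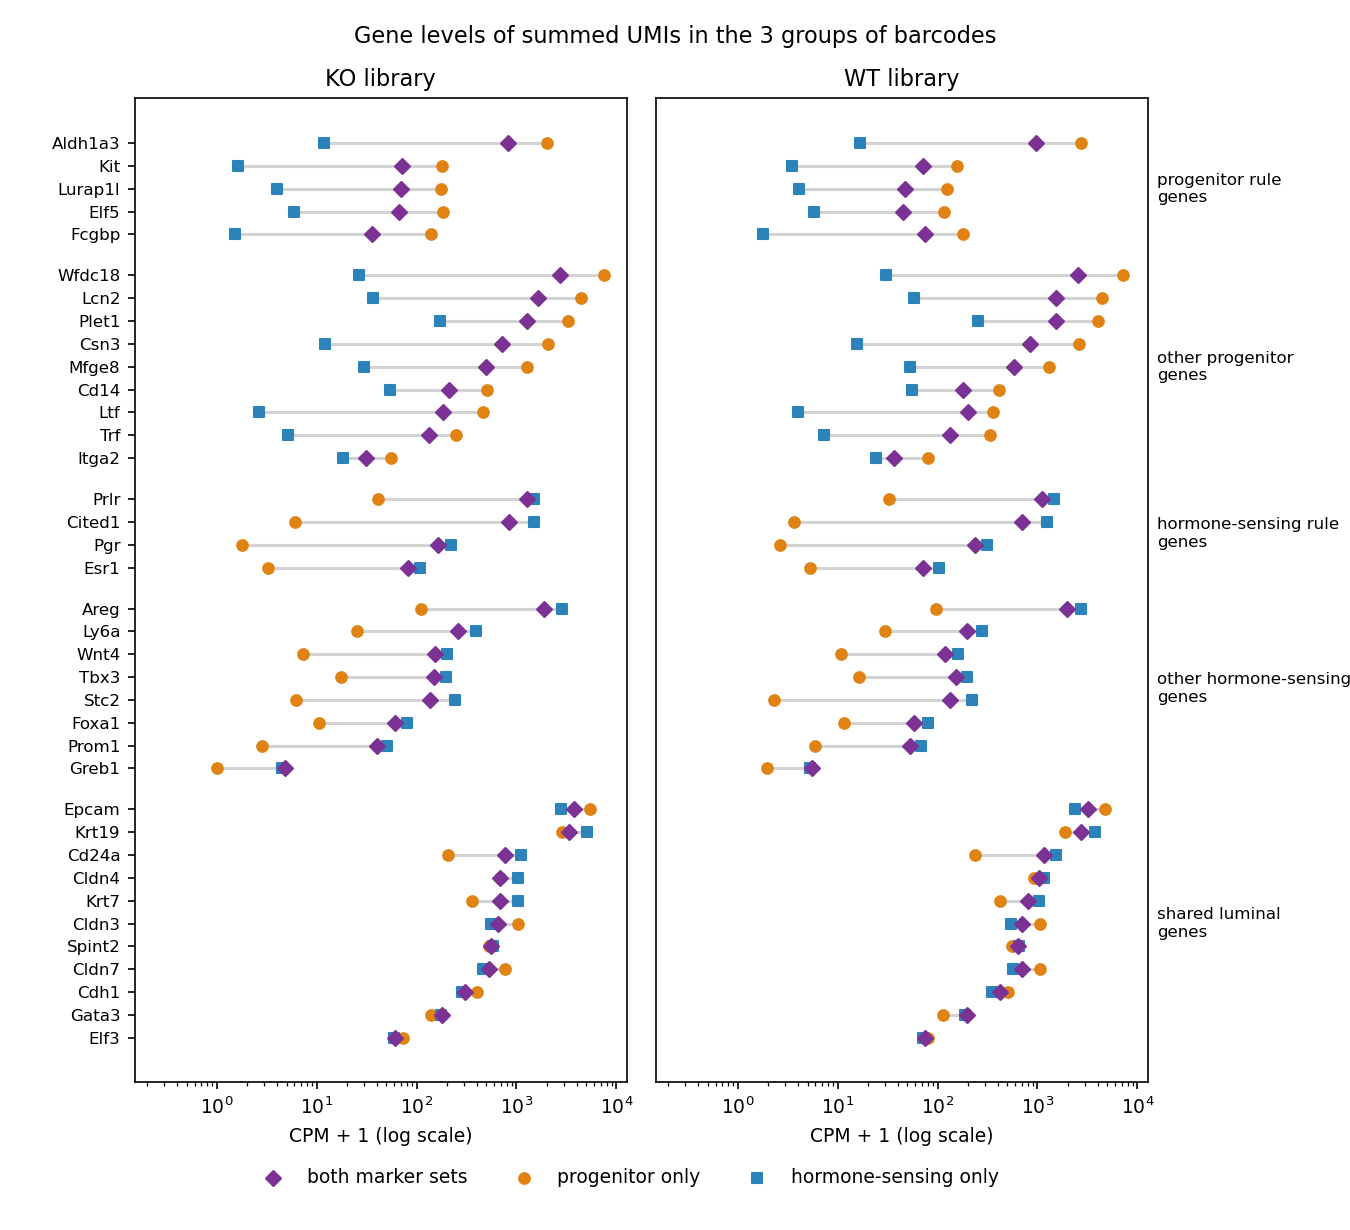
Levels of listed genes with at least 1 CPM in dual-marker barcodes of both libraries, as CPM + 1 of summed UMIs on a log axis, in dual-marker (diamonds), progenitor-only (circles) and hormone-sensing-only (squares) barcodes. Diamonds lie between circles and squares for the lineage genes, with Greb1 the exception, as for Wfdc18 at 2748 CPM between 7548 and 25.7 CPM in KO.

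Ligands and receptors through which luminal cells signal to each other were counted on the same barcodes. Wnt4, the progesterone-induced Wnt ligand, had 152 CPM in dual-marker barcodes of KO against 6.27 and 201 CPM in progenitor-only and hormone-sensing-only barcodes, and 119 CPM against 9.84 and 160 CPM in WT. Hbegf, another EGF receptor ligand, was higher in progenitor-only barcodes. It had 195 CPM in dual-marker barcodes against 361 and 47.7 CPM in progenitor-only and hormone-sensing-only barcodes of KO, and 216 CPM against 438 and 61.9 CPM in WT. On the receptor side, Egfr had 14.4 CPM in dual-marker barcodes of KO against 31.8 and 0.902 CPM, and 21.5 CPM against 52.5 and 3.90 CPM in WT, in the same order of groups. Tnfrsf11a, the receptor RANK, had 5.81 CPM against 12.1 and 2.18 CPM in KO, and 4.46 CPM against 11.8 and 2.63 CPM in WT. Tnfsf11, the ligand of RANK, was near absent: 0 UMIs in dual-marker barcodes of KO, which allows up to 0.249 CPM, and 0.0892 CPM in those of WT. All 8 listed receptors lay between both single-programme groups in each library, as did all listed ligands with at least 20 UMIs over the 3 groups (6 in KO, 7 in WT), where 64% of all genes in KO and 67.2% in WT did.

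The kinase Jak2 and the factor Stat5a, which relay the prolactin signal, followed Prlr. Stat5a had 104 CPM in dual-marker barcodes against 27.1 and 122 CPM in progenitor-only and hormone-sensing-only barcodes of KO, and 133 CPM against 27.5 and 165 CPM in WT. Socs2, a feedback inhibitor of this pathway, did not follow it: its dual-marker level was 23.9 CPM against 36.0 and 23.2 CPM in KO, and 32.4 CPM against 53.4 and 35.9 CPM in WT. Of the Notch genes, the target Hey1 had 19.5 CPM in dual-marker barcodes against 41.5 and 1.17 CPM in KO, and 14.0 CPM against 27.5 and 1.71 CPM in WT. The ligand Jag1 ran the other way, with 17.8 CPM in dual-marker barcodes against 5.66 and 27.5 CPM in KO, and 15.3 CPM against 9.51 and 25.0 CPM in WT. Among 11 genes shared by both lineages, 10 lay between the groups in each library, beside the 64% and 67.2% of all genes in KO and WT. Gata3, the luminal fate factor, lay above both, at 180 CPM against 137 and 176 CPM in KO and 195 CPM against 111 and 188 CPM in WT. Of the milk genes, Lalba (alpha-lactalbumin) had 19.9 CPM in dual-marker barcodes of KO against 63.9 and 0.188 CPM, and 19.98 CPM in those of WT against 147 and 0.558 CPM; the caseins Csn1s1, Csn1s2a and Csn2 were each under 3 CPM in dual-marker barcodes of both libraries.

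Across all genes, the dual-marker profile was close to a weighted sum of both single-programme profiles. For each library a single weight was fitted over all genes outside the rule, and the best weight was 37.9% progenitor-only in KO and 33.6% in WT. The progenitor-only share of the summed median depths was 41.2% in KO and 39.6% in WT. Of genes with at least 500 UMIs in dual-marker barcodes, 3985 of 4001 (99.6%) in KO and 3241 of 3257 (99.5%) in WT lay within 1.5-fold of this sum. The middle 90% of their log2 ratios to it ran from -0.18 to 0.26 in KO and from -0.17 to 0.20 in WT. The weight was fitted to these same counts, and most genes differed little between the groups. Of genes with at least 20 UMIs, 5.64% were 2-fold higher and 0.86% 2-fold lower than in hormone-sensing-only barcodes alone in KO. In WT it was 4.03% and 0.879%. The share within 1.5-fold of a single-programme profile was not counted, so closeness to the sum has no baseline. The hormone-sensing rule gene Prlr lay 0.44 above the sum on the log2 scale in KO and 0.20 in WT. The next counts cover genes outside the rule with at least 100 UMIs over the 3 groups. Of those at least 4-fold higher in progenitor-only than in hormone-sensing-only barcodes, 507 of 510 in KO and 395 of 401 in WT had a dual-marker level between both groups. Of those 4-fold higher in hormone-sensing-only barcodes, it was 449 of 467 in KO and 537 of 553 in WT. Over all genes with at least 20 UMIs over the 3 groups, 64% in KO and 67.2% in WT lay between. Genes picked for a 4-fold gap leave a wide range between the groups, so these counts test nothing.

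No gene was at least 2-fold above both single-programme groups in both libraries, of 13190 tested (0%), and none was 2-fold below both, of 14321 tested (0%). There is no tool and no p-value behind these counts, since each library is 1 sample. Among genes with at least 50 CPM in dual-marker barcodes of both libraries, those nearest to being above both, by the smallest of the 4 log2 ratios, were Cpd (0.23), which encodes a carboxypeptidase, Helz (0.18), a putative RNA helicase, and the chromatin insulator factor Ctcf (0.17). Among genes with at least 50 CPM in both single-programme groups of both libraries, those nearest to being below both were AY036118 (-0.54), the cyclin-dependent kinase subunit Cks2 (-0.52), Lars2 (-0.35), a mitochondrial leucyl-tRNA synthetase, and the histone variant H2afz (-0.24). Further down this order stood Dut (-0.21) and Tubb5 (-0.18), a dUTPase and a beta-tubulin, both high in dividing cells. Most genes that left the weighted sum by over 1.5-fold differed between the libraries, with only AY036118 in both. Of the 8 genes higher and 8 lower than the sum in each library, 5 in KO and 6 in WT had over 20% of their UMIs in 1 barcode.

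Genes of the cell cycle departed from the weighted sum. Of 15 G2/M genes, 13 in KO and 13 in WT were lower in dual-marker barcodes than in both single-programme groups, where 13.3% of all genes were in KO and 15.5% in WT. Their median log2 ratio to the weighted sum was -0.94 in KO and -0.69 in WT, against 0.04 and 0.001 for all genes. These sums rest on part of the barcodes. No G2/M UMI was found in 142 of 391 dual-marker barcodes of KO and 82 of 261 of WT. Among progenitor-only barcodes it was 252 of 341 and 121 of 183, and among hormone-sensing-only barcodes 557 of 1268 and 424 of 996. A single barcode held 15.9% of the dual-marker G2/M UMIs in KO and 11.3% in WT. Ube2c, which attaches ubiquitin for the exit from mitosis, had 19.0 CPM in dual-marker barcodes against 46.5 and 55.6 CPM in progenitor-only and hormone-sensing-only barcodes of KO. In WT it had 32.0 CPM against 40.3 and 71.2 CPM. Top2a, the DNA topoisomerase of dividing cells, had 24.0 CPM against 37.6 and 50.5 CPM in KO, and 44.3 CPM against 98.0 and 77.5 CPM in WT. Cenpf, a kinetochore protein, was the exception in WT, with 74.7 CPM in dual-marker barcodes against 49.2 and 63.0 CPM. Of 15 S phase genes, 12 in KO and 9 in WT were below both groups, and the median ratio to the sum was -0.30 in KO and -0.26 in WT. Tyms, thymidylate synthase, had 13.7 CPM in dual-marker barcodes against 26.5 and 21.5 CPM in KO, and 12.2 CPM against 42.6 and 18.4 CPM in WT. Interferon-stimulated genes were also mostly below the sum, 13 of 13 in KO and 12 of 13 in WT, where 42.6% of all genes were in KO and 49.8% in WT. Fewer of them were below both groups, 6 of 13 in KO and 3 of 13 in WT. Their median log2 ratio to the sum was -0.25 in KO and -0.22 in WT. Immediate early genes lay slightly above it, by a median of 0.22 in KO and 0.14 in WT, with Fos at 1496 CPM in dual-marker barcodes against 1003 and 1363 CPM in KO and 1165 CPM against 673 and 1160 CPM in WT.

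The same weight was then fitted to each luminal barcode alone, from genes outside the rule that differed at least 4-fold between the single-programme groups (854 in KO, 853 in WT). Dual-marker barcodes had a median progenitor weight of 37% in KO and 32% in WT, and 337 of 391 (86.2%) in KO and 211 of 261 (80.8%) in WT lay between 20 and 80%. Progenitor-only barcodes lay at a median of 100% and hormone-sensing-only barcodes at 0% in both libraries, as their own sums set the ends of the scale. Between 20 and 80% there was 1 of 341 progenitor-only barcodes in KO and 2 of 183 in WT, and 25 of 1268 hormone-sensing-only barcodes in KO and 38 of 996 in WT. Barcodes just inside the rule, with exactly 3 genes of each set, had a median weight of 40% in KO and 35.5% in WT, while those just outside with 2 progenitor genes had 22.5% and 16%, and those just outside with 2 hormone-sensing genes had 99.5% and 99%. Not every luminal barcode of middle weight met the rule. Of those between 20 and 80%, dual-marker barcodes were 337 of 471 (71.5%) in KO and 211 of 405 (52.1%) in WT, and the others were shallower, with a median of 25055.5 UMIs in KO and 12943.5 UMIs in WT.

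**Figure D4:**
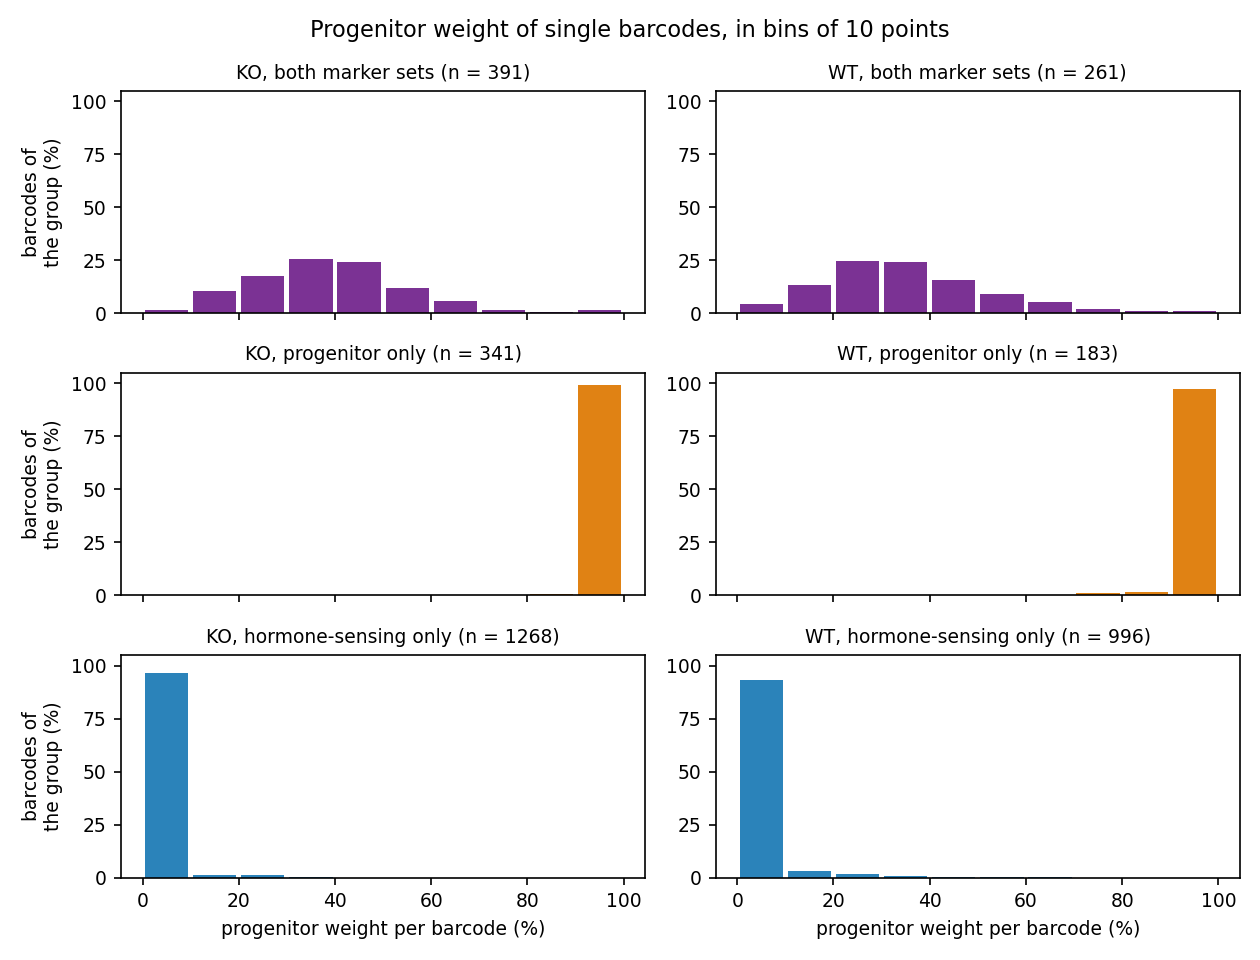
Share of barcodes (y axis, percent of each group) by fitted progenitor weight (x axis, percent, in bins of 10 points) in dual-marker, progenitor-only and hormone-sensing-only barcodes of each library. Dual-marker barcodes spread around medians of 37% in KO and 32% in WT, while the single-programme groups, which set the ends of the scale, lie at 100% and 0%.

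Joint detection was also counted for pairs of either luminal marker set with those of other cell types. Over all barcodes past the quality filters, without the keratin and collagen limits, 427 of 846 KO barcodes with at least 3 progenitor rule genes also had at least 3 hormone-sensing rule genes (50.5%, 47.1 to 53.9%). In WT it was 290 of 542 (53.5%, 49.2 to 57.8%). The same progenitor barcodes had at least 3 of 5 basal genes (such as Trp63 and Mylk) in 3.0% of KO and 7.6% of WT, at least 3 of 5 fibroblast genes (such as Pdgfra and Lum) in 6.3% of KO and 10.7% of WT, and at least 3 of 5 immune genes in 4.1% of KO and 4.2% of WT. Endothelial genes joined progenitor genes in 4 barcodes of each library. Taken over the larger hormone-sensing set, the same luminal pair made up 22.1% in KO and 14.8% in WT. Barcodes with the hormone-sensing set also had the fibroblast set in 151 of 1935 (7.8%) in KO and in 549 of 1966 (27.9%) in WT. They had the basal set in 3.0% in KO and 7.1% in WT. In WT the hormone-sensing set was thus joined more often by the fibroblast set than by the progenitor set. These shares depend on how readily each gene set is detected, and gene levels differ between sets. Barcodes under 5000 UMIs were then left out and the others thinned to 5000 UMIs. Of the barcodes that still had the progenitor set, 51 of 343 (14.9%) in KO and 28 of 166 (16.9%) in WT had the hormone-sensing set. Basal genes joined 3 and 1 of them, fibroblast genes 5 and 6, and immune genes 7 and 1, in KO and WT. The thinned share of hormone-sensing barcodes with the fibroblast set was 46 of 1289 (3.6%) in KO and 179 of 1228 (14.6%) in WT. With the progenitor set it was 3.96% in KO and 2.28% in WT.

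Markers of other cell types were present at low levels in dual-marker barcodes, where the rule itself bounds basal keratins and collagens. The 8 further basal genes summed to 213 CPM in dual-marker barcodes of KO, against 259 CPM in progenitor-only and 119 CPM in hormone-sensing-only barcodes, and to 419 CPM against 1122 and 384 CPM in WT. The 6 fibroblast genes summed to 106 CPM in dual-marker barcodes of KO, above both progenitor-only (91.0 CPM) and hormone-sensing-only (53.0 CPM) barcodes, and 4 of the 6 were above both groups, where 22.7% of all genes were. In WT they summed to 217 CPM against 190 and 266 CPM in those groups, and 0 of 6 were above both, where 17.3% of all genes were. The 8 immune genes summed to 145 CPM in dual-marker barcodes against 111 and 313 CPM in KO, and to 200 CPM against 28.5 and 325 CPM in WT. The 6 endothelial genes summed to 8.18 CPM against 15.6 and 13.7 CPM in KO and to 12.3 CPM against 7.21 and 34.3 CPM in WT, and the 5 pericyte genes to 39.5 CPM against 44.3 and 33.8 CPM in KO and to 56.2 CPM against 52.8 and 47.0 CPM in WT. No gene of these lists was at 0 in dual-marker barcodes. Single barcodes carried some signals. In WT, 1 dual-marker barcode of 57146 UMIs held 90.5% of S100a8 and 99.2% of Ngp UMIs, both neutrophil genes, and in KO 1 of 28595 UMIs held all 1977 UMIs of the haemoglobin gene Hbb-bs. What such RNA contributes to the other values was not tested.

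Clustering of all barcodes of both libraries put most dual-marker barcodes together. Of 38 clusters, 1, with 739 barcodes, contained 350 dual-marker barcodes of KO (89.5%) and 210 of WT (80.5%). The rest of it was 137 other luminal barcodes, 32 hormone-sensing-only, 1 progenitor-only and 9 outside the luminal limits. Of the 19 nearest neighbours of a dual-marker barcode, a mean of 14.9 in KO and 13.7 in WT were dual-marker barcodes too. Counts were scaled to 10000 UMIs per barcode before clustering, and no further step removed effects of depth. The rule genes were not left out, so the clustering adds no independent test. Scrublet, which compares each barcode with simulated sums of observed barcodes, called 10 of 391 (2.56%) dual-marker barcodes in KO and 7 of 261 (2.68%) in WT, against 4.30% and 2.90% of all barcodes of KO and WT. Of progenitor-only barcodes it called 1.47% in KO and 0.55% in WT, and of hormone-sensing-only barcodes 2.68% and 2.01%. The median Scrublet score of dual-marker barcodes was 0.0625 in KO and 0.0599 in WT, above those of progenitor-only (0.0159 and 0.0231) and hormone-sensing-only (0.0252 and 0.0298) barcodes. From these counts alone, 1 cell with both programmes and a droplet with a cell of each kind cannot be told apart.

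Few genes differed by 2-fold between dual-marker barcodes of the genotypes. At 2-fold and at least 20 UMIs over both libraries, 35 of 13190 genes (0.265%) were higher and 194 (1.47%) lower in KO than in WT. Of these, 20 of the 35 and 100 of the 194 had over 20% of the UMIs of the higher library in 1 barcode. The lineage genes were close. The further progenitor genes had a median KO over WT log2 ratio of -0.05 and the further hormone-sensing genes one of 0.02, against -0.03 for all genes, and none of either list was 2-fold different. Of the rule genes, Fcgbp alone passed 2-fold, with 34.8 CPM in KO dual-marker barcodes against 73.5 CPM in those of WT, a log2 ratio of -1.06. It was smaller in the other groups, at -0.36 in progenitor-only and -0.24 in hormone-sensing-only barcodes. The Notch target Hes1 had 785 CPM in KO against 1451 CPM in WT. Its log2 ratio was -0.88, beside -0.95 in progenitor-only and -0.82 in hormone-sensing-only barcodes.

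Genes were named from those that reached 50 CPM in 1 library, had 100 UMIs in all and drew no more than 20% of the higher library's UMIs from any barcode. Without the last condition the lowest ratios were those of S100a9 (-7.15), S100a8 (-6.52), Ngp (-6.30) and Camp (-6.23), carried by the WT barcode named above. Snhg9, the host RNA of a small nucleolar RNA, had 16.2 CPM (14.2 to 18.4) in dual-marker barcodes of KO against 91.4 CPM (85.9 to 97.2) in those of WT. Its log2 ratio was -2.42, beside -2.39 in progenitor-only and -2.48 in hormone-sensing-only barcodes. Hk2, the glycolytic enzyme hexokinase 2, had 64.2 CPM (60.2 to 68.4) in KO against 167 CPM (159 to 174) in WT, and Lars2 had 78.8 CPM (74.4 to 83.5) in KO against 199 CPM (191 to 207) in WT. Dstn, which severs actin filaments, had 681 CPM (668 to 695) in KO against 1587 CPM (1564 to 1611) in WT, and Nmt1, an N-myristoyltransferase, 98.6 CPM (93.6 to 104) in KO against 227 CPM (219 to 236) in WT. Of the other genes in the lowest 10 by this rule, Cenpf (log2 ratio -1.57), Acta2 (-1.12), the smooth muscle actin gene, and Ddit4 (-1.11), an inhibitor of mTOR signalling, had the same sign in both single-programme groups. The basal list, which includes Acta2 itself (66.9 CPM in KO, 147 CPM in WT), summed to 213 CPM in KO against 419 CPM in WT. None of its 8 genes was higher in KO. The part of basal RNA in the Acta2 result was not tested. Acta2 missed 2-fold with Scrublet calls removed (-0.69) and without the basal and collagen limits (-0.90), and 1 barcode held 41.8% of its KO UMIs. AC149090.1 (-1.52), a gene model without a name, also belonged to the lowest 10. Tsix (-1.70) lies antisense to Xist, and whether counting separated the strands is not given in the sources used here. Cenpf and Acta2 were higher in KO when the rule was applied to thinned barcodes, by log2 ratios of 2.00 and 1.37.

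Among the 10 highest by the same rule, Rnaset2a was the only gene past 2-fold, and it fell short of it (0.67) when the rule was applied to thinned barcodes. It had 59.2 CPM (55.4 to 63.3) in KO dual-marker barcodes against 26.4 CPM (23.5 to 29.6) in those of WT, and its near-identical copy Rnaset2b 56.2 CPM (52.4 to 60.1) against 29.4 CPM (26.4 to 32.8), so how reads were split between these ribonuclease genes is uncertain. Ramp1, a subunit of the receptor for the neuropeptide CGRP, had 64.6 CPM (60.5 to 68.8) in KO against 32.2 CPM (29.0 to 35.7) in WT. Bst2, an interferon-induced membrane protein, had 91.5 CPM (86.7 to 96.5) in KO against 50.5 CPM (46.4 to 54.8) in WT, and Pde4d, which breaks down cyclic AMP, 70.9 CPM (66.6 to 75.3) in KO against 40.7 CPM (37.0 to 44.6) in WT. The rest, Hist1h2bc, Dnajc12, Mpst, Immp1l and H2-T23, had log2 ratios of 0.68 to 0.78. All 20 genes had the same sign in progenitor-only and in hormone-sensing-only barcodes. Of the 194 genes 2-fold lower in KO, 71 were also 2-fold lower in progenitor-only, 112 in hormone-sensing-only and 59 in both groups. In 8 of the 194 the sign was opposite in both groups. Of the 35 genes 2-fold higher, 15 were also 2-fold higher in progenitor-only, 7 in hormone-sensing-only and 4 in both, and 3 had the opposite sign in both. The share of all genes past 2-fold in these groups was not counted, so the overlaps have no baseline. The barcodes of a library share its preparation, so library and genotype cannot be told apart in these ratios.

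**Figure D5:**
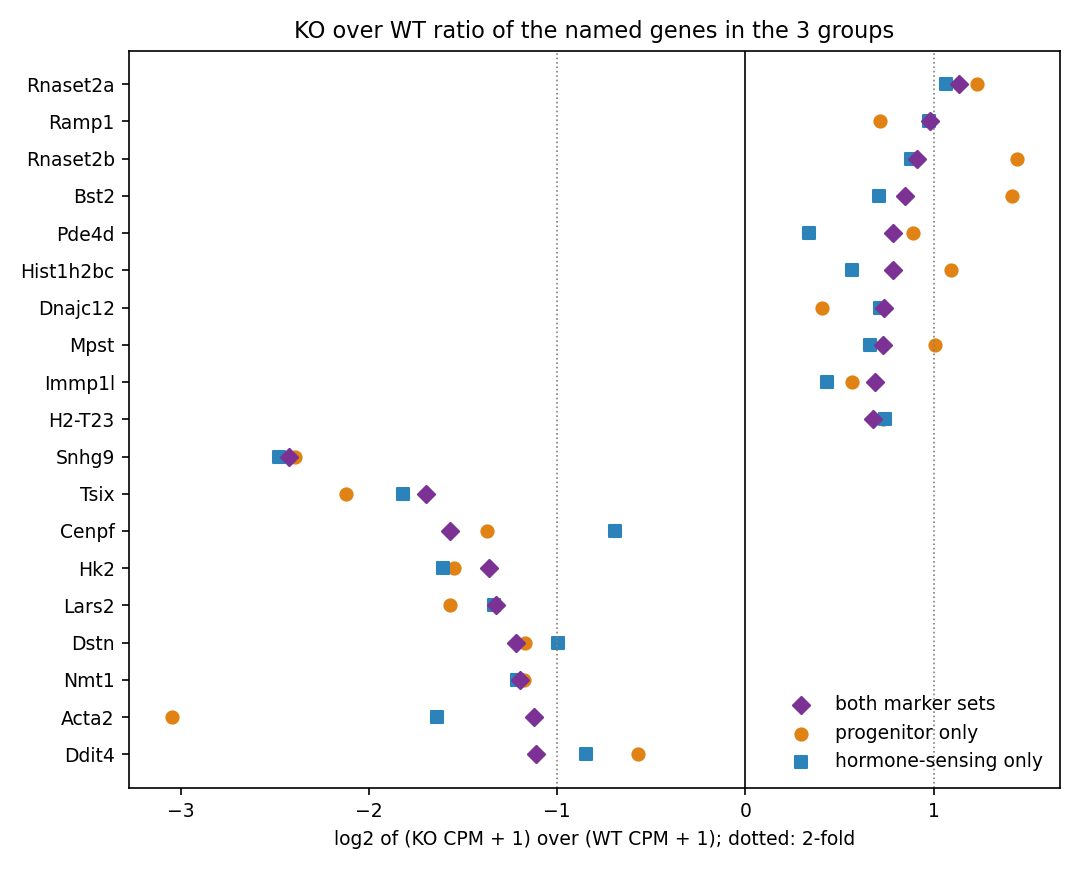
Log2 ratio of KO over WT levels (x axis, CPM + 1) of 19 of the 20 genes with the highest and lowest ratios in dual-marker barcodes (diamonds), with the same ratio in progenitor-only (circles) and hormone-sensing-only (squares) barcodes. All 3 symbols lie on the same side of 0 for each gene, as for Snhg9 at -2.42, -2.39 and -2.48.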

How the data were processed

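The deposited files hold raw UMI counts per gene and barcode from 10x Genomics 3′ libraries, made by the authors with Cell Ranger 5.0.1 and Seurat 3.2.0 on mm10, per the submitters' processing notes. Of 32285 gene identifiers, 99.6% were found in GENCODE M21 (GRCm38), which gave positions. The members, comparison groups and 24 gene lists were chosen with earlier results of these data known. UMIs were summed per group and library and scaled to CPM, and log2 ratios were taken after adding 1 CPM. A gene was called at 2-fold with at least 20 UMIs. Named genes were the 10 highest and 10 lowest KO over WT ratios among genes that reached 50 CPM in 1 library, had 100 UMIs over both and drew at most 20% of the higher library's UMIs from any barcode, and the 10 nearest to lying above or below both groups; genes of ribosomal proteins, mitochondria and haemoglobin, and Gm or Rik models, were left out. Weights were fitted by maximum Poisson likelihood. The fit to summed counts was checked on KO data simulated from the same weighted-sum model, and the weights of single barcodes were not checked by simulation. Scrublet (scanpy 1.11.5) and Leiden clustering (leidenalg 0.10.2, 2000 variable genes, 30 components, 20 neighbours, resolution 1) were used as descriptions, and Scrublet calls were kept. Alternatives covered quality filters, depth, the number of rule genes, comparison groups, added CPM, count filters and TMM scaling (edgeR 4.0.16).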

Additional observations from a re-analysis of the deposited data

How the results depend on the processing

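No paired analysis was possible because each genotype has 1 library and no test was made. With 1 library per genotype, no value has a replicate check. Log2 medians below are those of the further progenitor list over hormone-sensing-only barcodes, or of the further hormone-sensing list over progenitor-only barcodes; the cause of each change was not tested. The rule on barcodes thinned to 5000 UMIs left 49 members in KO and 24 in WT, depth ratios to progenitor-only of 2.45 in KO and to hormone-sensing-only of 1.65 in KO and 1.56 in WT, progenitor medians of 2.48 in KO and 2.66 in WT, a KO over WT share ratio of 1.49 (1.22 in the report), 86 genes below both groups and 318 genes higher in KO. It turned Cenpf (2.00) and Acta2 (1.37) round. After thinning, 14.9% of progenitor-set barcodes in KO and 16.9% in WT had the hormone-sensing set. Limiting depth to the 75th percentile of hormone-sensing-only barcodes left 87 members in KO and 91 in WT, depth ratios of 1.91 in KO and 2.01 in WT to progenitor-only and of 1.41 in KO and 1.38 in WT to hormone-sensing-only, a progenitor median of 5.83 in KO, hormone-sensing medians of 4.09 in KO and 3.81 in WT, 14 genes below both and 116 higher in KO, and reversed the share ratio to 0.830. At least 2 rule genes of each set gave 396 WT members, depth ratios of 1.80 (KO, hormone-sensing-only) and 2.54 (WT, progenitor-only), a KO progenitor median of 4.11, a share ratio of 1.08, 1 gene above and 2 below both. At least 4 of each set gave 205 members in KO and 114 in WT, a WT depth ratio to progenitor-only of 3.07, a share ratio of 1.47, 4 genes below both and 87 higher in KO. Without the basal and collagen limits, progenitor medians were 3.70 in KO and 2.94 in WT, the share ratio 1.63, and 5 genes lay above both. With no rule gene of the other set in the comparison groups, the KO progenitor median was 4.58, the WT depth ratio to progenitor-only 3.04, and 2 genes lay above both. Adding 5 CPM gave progenitor medians of 3.89 in KO and 3.58 in WT, a KO hormone-sensing median of 3.01, and 5 genes higher and 62 lower in KO; adding 0.1 CPM gave a KO hormone-sensing median of 4.22, 4 genes above and 13 below both, and 149 higher and 412 lower. The mean over barcodes gave a KO progenitor median of 4.57 and 2 genes above both. At least 100 UMIs gave a KO progenitor median of 4.67, 15 genes higher and 106 lower, and 99.0% of genes within 1.5-fold of the sum in each library. No count filter gave a WT progenitor median of 3.80. Leaving out genes carried by 1 barcode, chosen after seeing the data, gave 15 higher and 94 lower. The other 159 summary values stayed within a set margin, 1.5-fold for counts and an interval around the main value for the rest. That margin is wide for counts: 525 KO members with at least 2 rule genes of each set, against 391, fell inside it. Of the values of single genes under alternatives, 232 stayed inside such an interval and 26 moved. Calls at 2-fold changed for Rnaset2a (0.67) and Nmt1 (-0.90) under the thinned rule and for Acta2 with Scrublet calls removed (-0.69) or no basal and collagen limits (-0.90); Ramp1 passed 2-fold with the thinned rule (1.03), limited depth (1.38), 0.1 CPM, TMM and the mean over barcodes (1.09), Bst2 with the thinned rule (1.09) and Immp1l with limited depth (1.04).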
